A study of Mus musculus with 6 samples.

Results

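The membrane adenylyl cyclases are the enzymes that make cyclic AMP from ATP, and the mouse genome encodes them in the genes Adcy1 to Adcy9. All 9 genes were found by symbol among the 13965 rows of the deposited expression table, each in a row of its own that joins no other gene. The family was selected on the measured difference of 1 member, Adcy8, between mutant and control kidneys, so the values of Adcy8 in that comparison are a description and carry no test. The other 8 genes entered by name, in the same comparison. RNA of whole kidneys from mouse embryos of day 16 was sequenced in 6 libraries, 3 of each genotype. Control kidneys were labelled wild type with 1 floxed copy of the miR-17~92 microRNA cluster (flx/+), and no Cre transgene is named for them. Mutant kidneys carried the Six2-TGC transgene, which expresses Cre recombinase in nephron progenitors, and 2 floxed copies (flx/flx). Deletion is thus directed at the progenitors and the nephron cells that descend from them, not at stroma, vessels or ureteric bud. Since no control carries the transgene by its label, deletion and transgene cannot be told apart. Each of 3 litters gave 1 library of each genotype.

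A membrane adenylyl cyclase is switched on by the stimulatory G protein, Gs, below receptors for hormones such as parathyroid hormone and vasopressin, and the cyclic AMP it makes activates protein kinase A, Epac exchange factors and the transcription factor CREB. The isoforms differ in their other inputs. Adcy1, Adcy3 and Adcy8 encode enzymes that calcium and calmodulin stimulate, Adcy2, Adcy4 and Adcy7 enzymes that G protein beta-gamma subunits can stimulate, Adcy5 and Adcy6 enzymes that calcium and the inhibitory G protein, Gi, restrain, and Adcy9 an enzyme only weakly sensitive to the drug forskolin. In the kidney, cyclic AMP is best known for water reabsorption in the collecting duct, where Adcy6 has a main part, and for renin release and cyst growth.

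Values are CPM, read counts scaled to a common library size. The libraries held 43804667 to 54913325 reads, so that 1 CPM stands for 43.8 to 54.9 reads. Kidney markers were present as the label says, with all of the nephron progenitor (8), podocyte (6), proximal tubule (6), ureteric (8), stromal (7) and endothelial (6) markers held by the table. Of the markers of adjoining tissues the table held 1 of 8 for adrenal gland, 1 of 6 for skeletal muscle and 3 of 5 for heart and smooth muscle (256 to 315 CPM in control and 268 to 329.9 CPM in mutant libraries). Summed marker levels were lower in mutant kidneys without overlap for nephron progenitors (356 to 363 CPM, against 432 to 441 CPM). They were higher without overlap for proximal tubule (783 to 948 CPM, against 634 to 718 CPM), stroma (1494 to 1675, against 1216 to 1402), endothelium (787 to 824, against 678 to 734), early nephron (658 to 739.7, against 601 to 644), ureteric bud and collecting duct (615 to 657, against 584 to 602) and macrophages (97.4 to 122, against 86.5 to 90.8). Without their most abundant marker, Calb1 and Lrp2, the ureteric (309 to 346 against 303 to 338) and proximal tubule sums (375 to 406 against 321 to 380) overlapped, and the other 5 did not. Single markers of a list did not all go the same way. The log2 difference was below 0 for 5 of 8 progenitor markers. It was above 0 for 5 of 7 early nephron, 5 of 8 ureteric and 5 of 6 endothelial markers, and for all stromal, proximal tubule and macrophage markers. Podocyte sums (560.3 to 638 CPM, against 601 to 707) and loop and distal tubule sums (245 to 368, against 254 to 312) overlapped. All 6 podocyte markers nevertheless had a log2 difference below 0. Of the 4 loop and distal tubule markers, 3 were above 0. In whole kidneys, more cells of a type and more RNA per cell cannot be told apart. The part of these markers in the differences given next was not tested.

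Adcy6 was by far the most abundant of the family per length, and Adcy8 the least. Levels between genes are given as CPM per kilobase of annotated exon. Adcy6 stood at 23.9 ± 1.79 (SD, n = 3) in control kidneys and made up 52.1% ± 1.67 of the summed level of the 9 genes. Adcy2 (7.05 ± 0.753) and Adcy4 (6.43 ± 0.977) came next, with library ranges that overlapped. Adcy3 (3.28 ± 0.379) and Adcy1 (2.07 ± 0.326) followed, each clear of its neighbours in every library. Adcy7 (1.34 ± 0.159) and Adcy5 (1.09 ± 0.252) overlapped with each other. Adcy9 (0.576 ± 0.107) was lower, and Adcy8 (0.116 ± 0.0209) lay another 4.97-fold below Adcy9. By the same measure the calcium-inhibited pair gave 54.5% of the family, the beta-gamma-stimulated genes 32.4%, the calcium-stimulated genes 11.9% and Adcy9 1.25%.

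Mutant kidneys had the same order of levels, also with the longest transcript in place of all exons as the length. There Adcy2 stood at 10.0 ± 0.577 CPM per kilobase, and its range no longer touched that of Adcy4 (6.71 ± 0.906). Adcy8 stood at 0.469 ± 0.071, still below Adcy9 (0.837 ± 0.163), the gap between the means being 1.78-fold in place of 4.97-fold. The share of Adcy6 was 47.6% ± 3.64, that of Adcy2 19.6% ± 2.39 (15.4% ± 2.14 in control kidneys) and that of Adcy8 0.909% ± 0.0567 (0.253% ± 0.0418). Adcy8 thus remained under 1 part in 100 of the family's message in mutant kidneys.

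**Figure D1:**
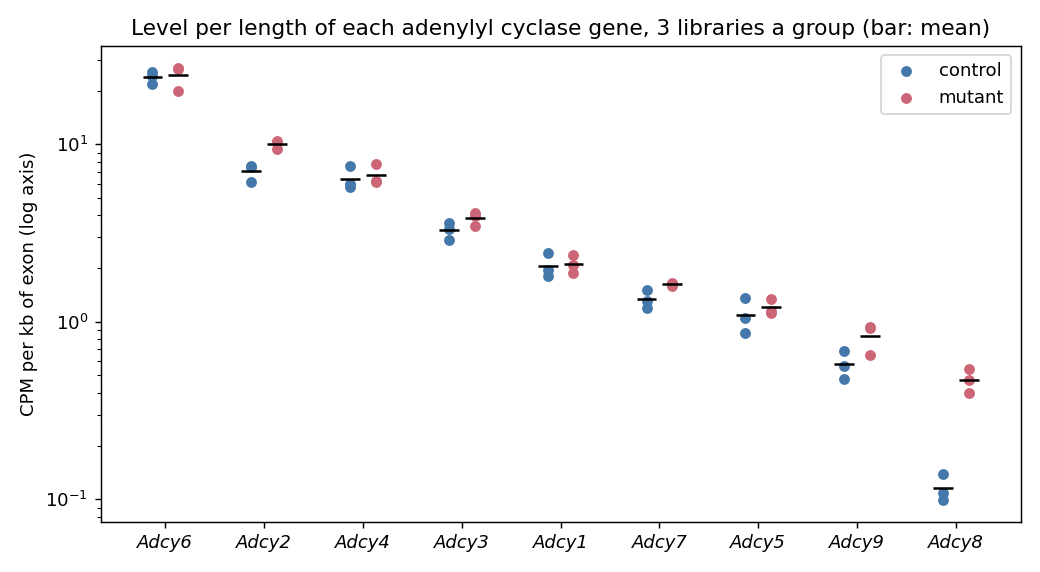
Level of each adenylyl cyclase gene in CPM per kilobase of annotated exon (log axis), with 1 point for each of 3 control (blue) and 3 mutant (red) libraries and a bar at the mean. Adcy6 is highest at 23.9 in control and 24.6 in mutant kidneys, and Adcy8 is lowest at 0.116 and 0.469.

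Genes were compared by limma on log2(CPM + 0.5) over the 13766 rows that reached 1 CPM in 3 or more libraries, without and with litter as a block, and a row was called at a Benjamini-Hochberg adjusted p below 0.05 over all of these rows. All 9 cyclase genes met that filter, Adcy8 only because it is high in mutant kidneys, since 1 control library alone reached 1 CPM. The model of genotype alone called 1 of the 9 (Adcy8), against 0.559% of all tested rows (0.363% higher and 0.196% lower). The model paired by litter called 3 (Adcy2, Adcy8 and Adcy9), all higher in mutant kidneys, against 11.4% of all rows (7.93% higher and 3.51% lower). Groups did not overlap for 3 (Adcy2, Adcy7 and Adcy8, all higher), against 17.3% of all rows (10.2% higher and 7.12% lower). The mutant library was higher in each litter for 6, against 28.3% of all rows, and 22.2% were lower in each litter. The median log2 difference of the 9 genes was 0.23, and 0.01 over all rows. Nothing is read from these counts, since the family was chosen for this comparison.

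Among the calcium-stimulated cyclases, Adcy8 was several-fold higher in mutant kidneys. It encodes a cyclase studied mostly in brain, where it couples calcium entry to cyclic AMP. It stood at 0.89, 1.14 and 0.809 CPM in the control libraries of litters 1, 2 and 3, or 39, 50 and 40 reads, and at 3.25, 4.41 and 3.81 CPM in the mutant libraries, or 157, 242 and 178 reads. Every mutant library was above every control library, and the mutant library exceeded its litter mate by 265%, 288% and 372%. Pooled over libraries and scaled to total reads, the mutant to control ratio was 4.1. The log2 difference was 1.58, and it ranged from 1.31 to 1.91 over the alternatives that kept the gene. On the log2(CPM + 0.5) scale the change of so low a gene is understated. The 3 nerve and Schwann cell markers analysed here summed to 12.2 to 20.3 CPM in control and 9.62 to 14.8 CPM in mutant libraries.

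The other calcium-stimulated genes differed little. Adcy1, another calmodulin-dependent cyclase of the nervous system, stood at 24.6, 22.7 and 30.5 CPM in control and 26.3, 23.7 and 29.7 CPM in mutant libraries. The groups overlapped and litter 3 was lower in the mutant, with a log2 difference of 0.04 (95% interval -0.26 to 0.34, limma adjusted p = 0.952). The difference was -0.16 once each library's trend on transcript length and GC content was removed (adjusted p = 0.532). Adcy3, the cyclase of olfactory neurons and primary cilia, stood at 18.0, 20.7 and 22.7 CPM in control and 21.8, 25.8 and 24.5 CPM in mutant libraries. It was higher in the mutant of each litter, but the groups overlapped. The log2 difference of 0.23 did not pass (limma adjusted p = 0.517, and 0.082 paired by litter, where it was 0.0375 without litter 3). Exons of Adcy3 share 1380 bases with Cenpo on the opposite strand. Those of Adcy6 share 605 bases with the antisense gene Gm29331, and those of Adcy2 189 bases with the antisense gene Gm35161. The strand setting of the counting is not given, so reads of these overlaps cannot be told apart.

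Among the beta-gamma-stimulated cyclases, Adcy2 was higher in mutant kidneys when litters were paired. It stood at 31.3, 31.7 and 26.0 CPM in control and 42.8, 44.2 and 39.5 CPM in mutant libraries. The groups did not overlap, and the mutant library exceeded its litter mate by 36.5%, 39.8% and 51.8%. Its log2 difference was 0.50 (SE 0.11), with a limma adjusted p of 0.0808, and 0.00361 paired by litter. With the length and GC trend removed the adjusted p was 0.0468 without the block (1.66% of all rows called) and 0.00581 with it (6.5%). Adcy7, a cyclase prominent in blood cells, stood at 8.79, 8.09 and 10.2 CPM in control and 10.7, 11.0 and 11.2 CPM in mutant libraries, also without overlap. Its log2 difference of 0.27 did not pass (adjusted p = 0.442, and 0.104 paired by litter). Adcy4, a cyclase of vascular endothelium among other cells, stood at 27.9, 35.3 and 26.9 CPM in control and 28.8, 36.2 and 29.0 CPM in mutant libraries. Its libraries followed litter more than genotype, with litter 2 high in both groups, and the log2 difference was 0.06 (95% interval -0.24 to 0.36, adjusted p = 0.909, and 0.535 paired by litter).

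The calcium-inhibited cyclases did not separate the genotypes. Adcy6 stood at 149, 165 and 173 CPM in control and 135, 181 and 184 CPM in mutant libraries. In litter 1 the mutant was lower by 9.11% in size and in litters 2 and 3 higher by 10.2% and 6.41%, and the log2 difference was 0.03 (95% interval -0.24 to 0.30, adjusted p = 0.959). Paired by litter the interval was -0.10 to 0.16. Adcy5, the main cyclase of striatal neurons and, with Adcy6, of heart muscle, stood at 6.21, 7.52 and 9.78 CPM in control and 8.12, 9.72 and 8.31 CPM in mutant libraries. Its mutant library was higher in litters 1 and 2 and lower in litter 3, and the log2 difference of 0.16 did not pass (adjusted p = 0.768, and 0.451 paired by litter). Adcy9, expressed in many tissues, stood at 2.47, 2.93 and 3.58 CPM in control and 3.37, 4.86 and 4.82 CPM in mutant libraries. It was higher in each litter with overlapping groups, and its log2 difference was 0.47 (SE 0.18, limma adjusted p = 0.348, and 0.0471 paired by litter). That paired call was lost without litter 1 (0.139), without litter 2 (0.177), with median-ratio scaling (0.0532) and with the length and GC trend removed (0.0795).

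**Figure D2:**
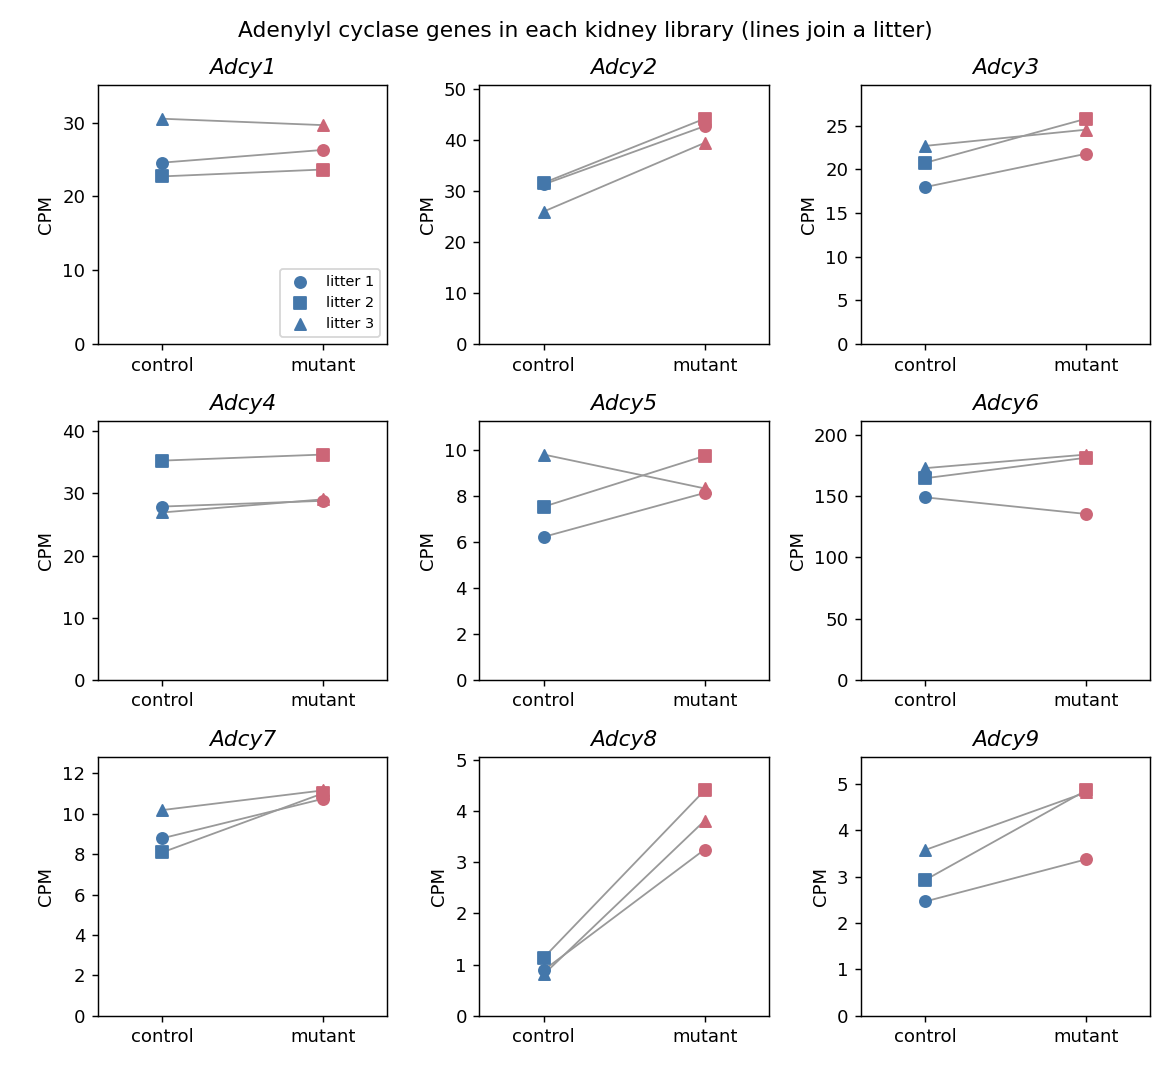
CPM of each adenylyl cyclase gene in the 3 control (blue) and 3 mutant (red) libraries, with 1 marker shape a litter, grey lines joining litter mates and each vertical axis starting at 0. Adcy8 goes from at most 1.14 CPM in control to at least 3.25 CPM in mutant libraries, Adcy2 and Adcy7 also part without overlap, and the lines of Adcy1, Adcy5 and Adcy6 run in both directions.

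**Figure D3:**
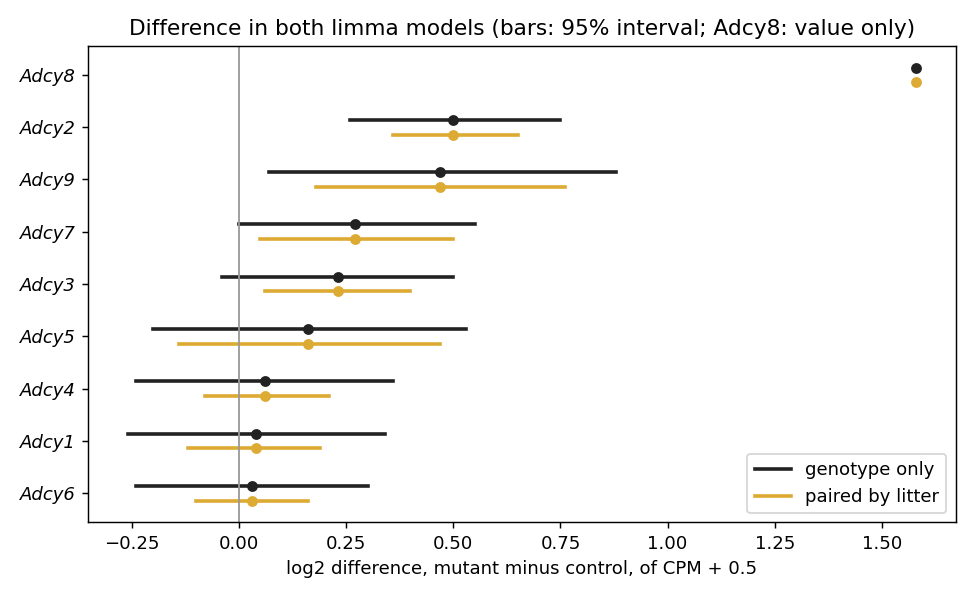
Log2 difference (mutant minus control) of CPM + 0.5 for each gene from limma, with genotype alone (black) and paired by litter (yellow). Bars are 95% intervals, left out for Adcy8. Adcy8 lies at 1.58, Adcy2 at 0.50 and Adcy9 at 0.47, and the paired intervals of Adcy5, Adcy4, Adcy1 and Adcy6 include 0.

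The summed level of the family overlapped between the genotypes, and that of the genes other than Adcy6 did not. The 9 genes together stood at 43.0, 47.4 and 47.2 CPM per kilobase in control and 45.6, 55.5 and 53.2 in mutant libraries. Without Adcy6 the sums were 21.0, 23.2 and 21.7 in control and 25.7, 28.7 and 26.1 in mutant libraries. Of the mean difference between these sums, from 21.9 ± 1.10 to 26.8 ± 1.66, most lay in Adcy2, whose own mean went from 7.05 to 10.0. Adcy8 went from 0.116 to 0.469 on the same scale.

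MicroRNAs lower the level of messages that hold matches to their seed, bases 2 to 8, mostly in the 3′ UTR, so the matches in the cyclase messages were searched. The mature microRNAs of the cluster fall into 4 seed families, encoded on chromosome 14, plus strand, between 115043684 and 115044496 (GRCm38.p6). One sequence of each family, from RefSeq, is shown 5′ to 3′ with the seed in capitals.
miR-17-5p: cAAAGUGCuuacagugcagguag
miR-18a-5p: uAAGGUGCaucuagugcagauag
miR-19b-3p: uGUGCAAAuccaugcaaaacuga
miR-92a-3p: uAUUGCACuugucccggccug

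miR-20a-5p shares the seed of miR-17-5p, and miR-19a-3p that of miR-19b-3p. The longest 3′ UTR of each gene in the GENCODE M21 annotation was searched on the message strand for 7-base complements of the seeds. These were GCACTTT for miR-17 and miR-20a (in 14.8% of genes), GCACCTT for miR-18a (9.59%), TTTGCAC for miR-19 (13.5%) and GTGCAAT for miR-92a (7.78%). At least 1 match was present in 34.3% of 12580 tested genes with an annotated 3′ UTR, of median length 1230 bases. Genes in joined rows and those with the shortest annotated 3′ UTRs were left out of this count. Adcy8, whose 3′ UTR has 2049 bases, held no match to any of the 4 families. Adcy5, Adcy6, Adcy9 and Adcy4 held none either, in 1997, 2377, 369 and 84 bases. Adcy2 held 1 match, Adcy3 1, Adcy7 2 and Adcy1 8, the last in a 3′ UTR of 8791 bases. The matches of Adcy2, Adcy3 and Adcy7 are shown because these genes had the larger differences among those with a match, each with its flanks and the 7 matched bases in capitals.
Adcy2, miR-17/20a: gaaggtaccacGCACTTTctgactgcagc
Adcy3, miR-92a: gagagcagaaaGTGCAATatttcctttca
Adcy7, miR-17/20a: tttttctgtgtGCACTTTatttattttgg
Adcy7, miR-19: gctgattttagTTTGCACaaaggaatcta

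The matches of Adcy3 and Adcy7 are followed by an A, across from the first base of the microRNA, and that of Adcy2 is not. That first base is a U in miR-20a-5p, miR-19b-3p and miR-92a-3p. It is a C in miR-17-5p, for which the A adds no matched base. Adcy8 held no match in the 3′ UTR searched, and Adcy1, with 8 matches, had a log2 difference of 0.04. Whether matches bear on the differences was not tested. A match or its lack in an annotated 3′ UTR is a description of letters and shows no binding.

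The nearest genes that the table holds beside Adcy8 did not share its difference in size. On chromosome 15 of GRCm38 these are Asap1, a regulator of the small G protein Arf, and Efr3a, a plasma membrane anchor of a lipid kinase. They lie 314.2 and 864.7 kilobases from Adcy8. Asap1 stood at 92.5, 92.0 and 111 CPM in control and 96.1, 103 and 126 CPM in mutant libraries (log2 difference 0.13, limma adjusted p = 0.737). Efr3a stood at 89.1, 72.2 and 90.8 CPM in control and 108, 99.6 and 108 CPM in mutant libraries, without overlap. Its log2 difference was 0.33 (limma adjusted p = 0.241, and 0.011 paired by litter).

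The rows most like Adcy8 over the 6 libraries, by Pearson's r of log2(CPM + 0.5) among 13716 rows with a mean of at least 1 CPM, were Ntsr1, a neurotensin receptor (r = 0.997), Ggcx, the vitamin K-dependent carboxylase (0.996), BC067074 (0.993), Adamts16, a secreted metalloprotease (0.993), and Parm1 (0.992). All of them were higher in each mutant library than in any control library, and since the libraries are 2 groups of 3, r here mostly records that step. Ntsr1 went from 10.7 ± 0.759 CPM to 19.9 ± 1.95 CPM. Within the family the r with Adcy8 was 0.95 for Adcy2, 0.79 for Adcy9, 0.76 for Adcy7 and 0.73 for Adcy3, and 0.39 or less for Adcy5, Adcy4, Adcy6 and Adcy1. Adcy6, the most abundant member, was most like Mapk7 (0.993), a MAP kinase gene, Zbtb2 (0.988), 2700081O15Rik, Prickle3 and Tbx2 (0.987 each). Like it, Mapk7 and Zbtb2 were lowest in mutant library 1.

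Other genes of or around cyclic AMP signalling, guanylyl cyclases and calcium partners among them, were counted from 12 lists of 153 genes. Of these, 116 were tested. Without pairing 2 rose and 0 fell (1.72%, against 0.559% of all rows), and paired by litter 13 rose and 3 fell (13.8%, against 11.4%). The median log2 difference was 0.07, and 0.01 over all rows. Of the 16 called with pairing, 5 (Pck1, Akap12, Lpar1, Creb3l2 and Pde4c) were called in all 6 fits with the litter block, which also varied scaling, the length and GC trend and the litters used. Counts by list that follow stand against paired shares over all rows of 7.93% higher and 3.51% lower. The 2 that rose without pairing were Pck1 and Akap12. Pck1, a gluconeogenic enzyme gene that cyclic AMP is known to induce, stood at 12.3, 10.1 and 13.4 CPM in control and 42.3, 31.9 and 29.7 CPM in mutant libraries (log2 difference 1.49, limma adjusted p = 0.00257). It is also a proximal tubule gene, and it was already known to differ here when the list was drawn up. The remaining 8 tested genes of its list, cyclic AMP-induced targets, were not called in either model. Among them Per1, a clock gene and the highest in level of the list, had 35.6 ± 2.52 CPM in control, and 40.5 ± 2.58 CPM in mutant (log2 difference 0.18, adjusted p = 0.539, and 0.0787 paired). The median of the list was -0.00, with 4 genes above 0 and 5 below.

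Upstream of the cyclases, G protein genes were not called and 3 receptor genes were called in the paired model and not in that of genotype alone. None of 7 alpha subunit genes and none of 7 beta subunit or chaperone genes passed in either model. The highest of each were Gnai2, a Gi alpha subunit (378 ± 39.7 CPM in control, 367 ± 32.9 CPM in mutant), and the row that joins the beta subunit gene Gnb2 with Epo (509.8 ± 49.2 and 472 ± 54.9 CPM), with log2 differences of -0.04 and -0.11. Gnas, which encodes the alpha subunit of Gs, had far lower values, with means of 8.63 ± 1.31 (control) and 7.49 ± 0.323 CPM (mutant). Its log2 difference was -0.18 (limma adjusted p = 0.665, and 0.31 paired). Whether that row holds all reads of Gnas was not tested, because the counting program, annotation and strand setting are not given. The lack of a call for Gnas is thus limited to the reads in that row. Of 11 tested Gs-coupled receptor and partner genes, Calcrl, the receptor subunit for adrenomedullin, fell with pairing (88.4 ± 14.1 to 74.9 ± 11.7 CPM, adjusted p = 0.579, and 0.021 paired, or 0.119 without litter 1). The highest row of that list joins Ramp2, a receptor partner of Calcrl, with Vps25 (229.7 ± 13.7 and 232 ± 19.9 CPM, log2 difference 0.01). All 8 tested Gi-coupled receptor genes had a difference above 0, as did 53.1% of all rows, with a median of 0.33. Among them Lpar1, a lysophosphatidic acid receptor, rose with pairing from 23.0 ± 1.48 to 32.7 ± 2.71 CPM (adjusted p = 0.076, and 0.00408 paired), and it also passed without pairing once the length and GC trend was removed (0.0109). Adra2b, an alpha-2 adrenergic receptor, rose with pairing from 3.86 ± 0.797 to 5.42 ± 0.71 CPM (0.34, and 0.0497 paired). That call was lost with median-ratio scaling (0.0563), with the length and GC trend removed (0.0715) and without litter 1 (0.193) or 2 (0.162).

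Of the phosphodiesterase and anchoring genes, Pde4c and Akap12 had the largest called differences. Of 16 tested phosphodiesterase and exporter genes, which break down or export cyclic AMP, 2 rose and 1 fell with pairing. Pde4c fell from 30.1, 34.0 and 32.2 CPM in control to 15.6, 17.9 and 23.4 CPM in mutant libraries, with no overlap (log2 difference -0.76, adjusted p = 0.0523, and 0.00442 paired). Without pairing it passed with the length and GC trend removed (0.015), without control library 1 (0.0318) and without mutant library 3 (0.0419). Pde4b (19.1 ± 3.20 to 24.0 ± 3.06 CPM, adjusted p = 0.445, and 0.0264 paired) rose with pairing, but not without litter 1 (0.103) or 2 (0.0551). Pde3a (24.5 ± 4.70 to 30.2 ± 3.04 CPM, 0.466, and 0.0472 paired) did so too, but not with median-ratio scaling (0.0565), with the length and GC trend removed (0.329) or without litter 1 (0.0817) or 2 (0.166). Pde7a, the highest of the list, stood at 94.8 ± 7.91 and 92.8 ± 4.97 CPM (log2 difference -0.03). Among 13 anchoring proteins of protein kinase A, Akap12 rose from 192, 191 and 185 CPM to 267, 249 and 252 CPM (log2 difference 0.43, adjusted p = 0.0299, and 0.00143 paired). In the model of genotype alone its call held without control library 1 (0.0406) and was lost when any other single library was dropped, at 0.119 (control 2), 0.121 (control 3), 0.0631 (mutant 1), 0.08 (mutant 2) and 0.157 (mutant 3). Akap13 rose with pairing (107 ± 9.48 to 137 ± 15.4 CPM, adjusted p = 0.213, and 0.00365 paired), but not with the length and GC trend removed as well (0.0717).

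The kinase itself and calmodulin showed few calls. Of 9 protein kinase A genes 1, the regulatory subunit gene Prkar2a, rose with pairing (56.6 ± 5.26 to 66.5 ± 4.82 CPM, adjusted p = 0.425, and 0.0255 paired), but not with the length and GC trend removed (0.0767) or without litter 1 (0.171). Prkar1a, another regulatory subunit gene and the highest of the list, stood at 508 ± 26.4 and 494 ± 8.2 CPM (log2 difference -0.04). Of 12 genes of the CREB family and its co-activators 3 rose with pairing, Creb3l2 (mean 112 to 146 CPM, 0.00332 paired), Crebbp (39.9 to 51.8 CPM, 0.021) and the joined row that holds Ep300 (103 to 126 CPM, 0.00794). Their adjusted p without pairing was 0.0849, 0.412 and 0.378. Crebbp and Ep300 lost the paired call with the length and GC trend removed, at 0.192 and 0.122, and without litter 1, at 0.0638 and 0.0589. Of 15 calcium and calmodulin genes, which bear on Adcy8, Camk2a fell with pairing (4.75 ± 0.238 to 3.17 ± 0.343 CPM, adjusted p = 0.168, and 0.0366 paired), but not without litter 1 (0.203) or 2 (0.0551), and the others were not called, Calm2 among them (496 ± 17.8 and 439.6 ± 28.6 CPM, 0.053 paired). Epac and Popeye genes, the remaining effectors, gave 0 calls of 4 in either limma model, the highest being Rapgef3, an Epac gene (64.1 ± 8.06 and 73.2 ± 10.4 CPM, 0.0525 paired). Of 5 tested guanylyl cyclase genes, the family that makes cyclic GMP, Gucy1a2 (mean 4.49 to 6.15 CPM, adjusted p = 0.552, and 0.048 paired) and Gucy1a1 (134 to 151 CPM, 0.622, and 0.0471 paired) rose with pairing. Both calls were lost with median-ratio scaling (0.0548 and 0.0639), with the length and GC trend removed (0.0625 and 0.11), without litter 1 (0.154 and 0.275) and without litter 2 (0.16 and 0.139).

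**Figure D4:**
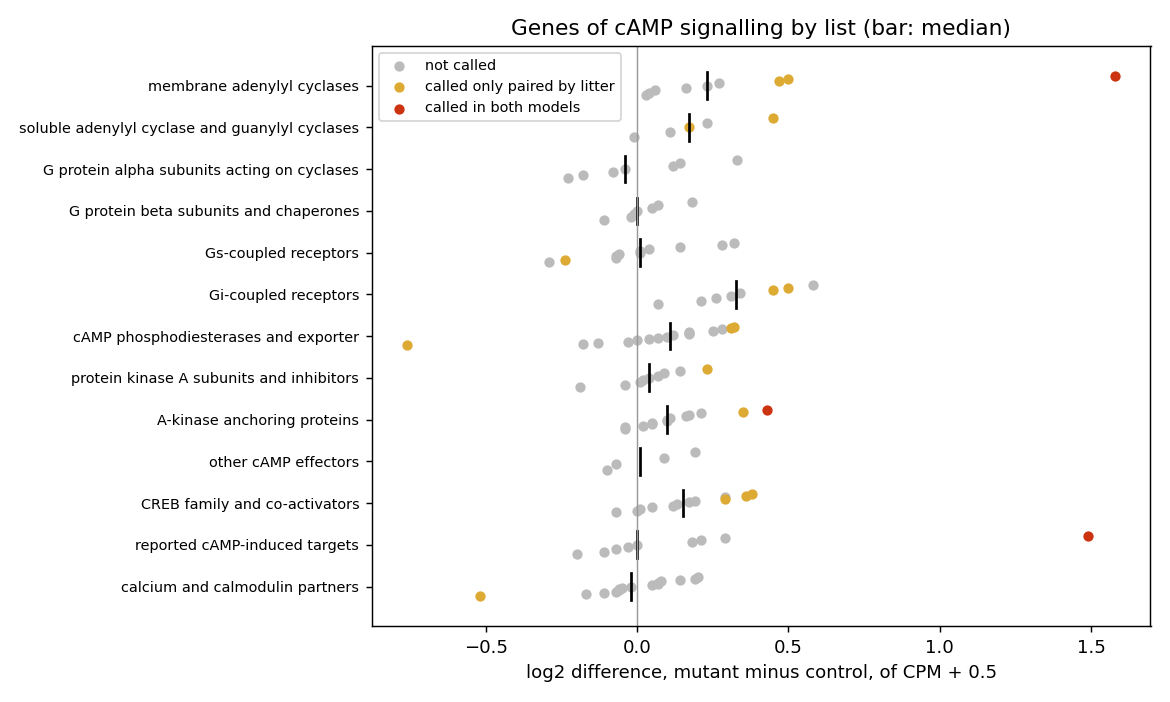
Log2 difference (mutant minus control) of CPM + 0.5 for each tested gene of or around cyclic AMP signalling by list. A bar marks the list's median. Genes are coloured by whether limma called them in neither model (grey), only paired by litter (yellow) or in both (red). The colour of Adcy8 is a description and no test, since the family was chosen on its difference. Adcy8 (1.58) and Pck1 (1.49) lie farthest right, and Pde4c (-0.76) farthest left.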

How the data were processed

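Per the labels, total RNA of 6 whole kidneys was made into TruSeq libraries. The authors deposited CPM values per Ensembl gene. The submitters' processing notes name TopHat2 2.0.9, Picard, SAMtools and build NCBIM37. The counting program, annotation, strand setting and filter are not given in the sources used here. The table joins overlapping genes in 526 of 13965 rows. With 1 total for each library, all CPM values gave whole reads to within 0.001. Symbols and exon lengths came from GENCODE M21 (GRCm38), and 13695 rows had a symbol.

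limma 3.58.1 (R 4.3.3, mean-variance trend) was fitted to log2(CPM + 0.5) over the 13766 rows that reached 1 CPM in 3 or more libraries, with genotype alone and, as an alternative, with litter as a block. Each label gives a litter. Across genes, deviations from group means correlated at 0.619, 0.446 and 0.312 within litters and at -0.514 to 0.172 between them. The labels do not say whether a library is 1 animal. The limma fits were also tried on simulated counts drawn around the means of these data. The members and lists were chosen with earlier results of these data known. Named were all 9 members, listed genes called in either model (at most 25, by size), each list's highest row, the nearest neighbours of Adcy8 and the 5 rows most like Adcy8 and Adcy6. Scaling, pseudocount, filter, length and GC content, and left-out libraries and litters were varied. Marker sums without the most abundant marker, counts of markers by direction and the values of Gnas were added after seeing the data.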

Additional observations from a re-analysis of the deposited data

How the results depend on the processing

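The count of cyclase genes called was 1 in the model of genotype alone and 1 with either other scaling, either other pseudocount, no filter, and any 1 of the 6 libraries left out. It was 3 paired by litter (replicate block), 2 with median-ratio scaling and the block, 2 with the length and GC trend removed, without and with the block, and 2, 1 and 4 with the block and without litters 1, 2 and 3. These counts include Adcy8, for which the family was chosen. Without litter 2 it no longer met the filter. Adcy2 was called in 6 of 6 fits with the block and in 1 without it. Adcy1 changed sign with the length and GC trend removed (-0.164, also with the block) and ranged from -0.051 to 0.16 with 1 library left out. Adcy6 was -0.059 with that trend removed, with and without the block, -0.024 with the block and without litter 2, and -0.046 to 0.17 with 1 library left out, and Adcy4 ranged from -0.043 to 0.18. None of these was called. The count of other genes of or around cyclic AMP signalling went from 2 to 16 with the block, and to 13 with the block and median-ratio scaling. It was 4 and 8 with the length and GC trend removed (without and with the block) and 1 to 3 with 1 library left out. With the block and without litters 1, 2 and 3 it was 6, 12 and 20. Over all rows the count was 77 with genotype alone, 1574 with the block, 1502 with the block and median-ratio scaling, 224 and 878 with the length and GC trend removed (without and with the block), 22 to 100 with 1 library left out, and 381, 1403 and 2348 with the block and without litters 1, 2 and 3. Median-ratio and trimmed-mean scaling shifted mutant against control libraries by 0.0164 and 0.019 (log2). Tests on read counts were planned and not run. At 39 to 50 reads a control library, counting error limits the level of Adcy8 there.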
